A study of Mus musculus with 2 samples.

Results

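The genes described here are 32 genes of glycolysis and of the response to low oxygen, taken by symbol from a list of the pathway's genes. The rule itself uses no measured level, but the list was chosen with earlier results of these data known. All 32 were found among the 31053 genes of the matrix, and 33 features carry their symbols because Aldoa is given to 2 gene identifiers, of which the one used here, ENSMUSG00000030695, held 247558 UMIs and the other 4. They fall into 15 glycolytic steps (Slc2a1, Hk1, Hk2, Gpi1, Pfkl, Pfkp, Aldoa, Tpi1, Gapdh, Pgk1, Pgam1, Eno1, Pkm, Ldha and Slc16a3), 15 target and feedback genes of hypoxia-inducible factor, HIF (Bnip3, Bnip3l, Hilpda, Ero1l, Egln1, Egln3, Ankrd37, Ndrg1, Pdk1, P4ha1, P4ha2, Mxi1, Higd1a, Kdm3a and Ddit4), and Hif1a and Mif.

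The study asked how the NF-kB subunit c-Rel acts in the myeloid cells of a tumour. Mice were injected with B16F10, a mouse melanoma cell line, and after 2 weeks the living cells that bear CD45, the surface protein of white blood cells, were sorted from digested tumours of similar size for droplet-based 3′ RNA sequencing. One library was made from LysM-cre x Rel+/+ mice, called wild type by the submitters, and another from LysM-cre x RelloxP/loxP mice, in which Cre recombinase under the lysozyme M promoter removes Rel, the c-Rel gene, from cells of the myeloid lineage. LysM-cre was thus carried by both groups, and each library pooled 5 tumours. The matrix marks its 2 libraries only by a number after each barcode, nothing in the sources used here ties that number to a genotype, and they are called library 1 and library 2 with no genotype assigned.

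With 1 library per genotype there was no replicate and no test was made. Values are given for each library in the order library 1 and library 2. Intervals are exact 95% intervals for counting error and include no variation between mice or between the barcodes of a class. Genotype, pool and library cannot be told apart. A level is given as CPM, the UMIs of a gene per 1000000 UMIs summed over all barcodes of a class in a library. UMIs are counts of distinct captured RNA molecules, so a level is a share of the RNA captured and not an amount per cell. Because 3′ counting reads 1 tag per molecule, levels of different genes are compared as shares of molecules with no correction for length.

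Library 1 held 7688 barcodes and 49129318 UMIs, and library 2 held 10564 barcodes and 73507228 UMIs. Barcodes were put into 6 classes by the UMIs of fixed marker genes, with thresholds set after the marker shares had been seen, and barcodes with markers of several classes were left out. The melanoma-like class held 2235 and 5333 barcodes in library 1 and library 2, the macrophage-like class 424 and 651, the monocyte-like class 567 and 575, the neutrophil-like class 101 and 40, the T-like class 641 and 361, and the NK-like class 225 and 56. A class is a range of marker UMIs and not a sorted population, and between 2 and 204 barcodes of each class and library lay within 1.5 times its threshold. Melanoma-like barcodes were the largest class although the cells had been sorted on CD45. The CD45 gene itself, Ptprc, reached 5.01 and 3.69 CPM in this class and 839.9 and 552 CPM in the monocyte-like class. Rel, the targeted gene, was at 341 and 107 CPM in monocyte-like, 122 and 26.5 CPM in macrophage-like and 151 and 162 CPM in T-like barcodes, and no genotype was read from these values. The filters on UMIs, genes and mitochondrial share were passed by 7189 barcodes in library 1 and 9528 in library 2. Of these, 1991 and 1529 shared their barcode sequence with a barcode of over 10 times their UMIs in the other library and were left out. Melanoma RNA, estimated from the pigment genes Pmel, Mlana, Dct and Tyrp1 against their share in melanoma-like barcodes, made up 2.29% to 3.77% of the UMIs of immune-like classes in library 1 and 5.95% to 8.15% in library 2. These pigment genes are also markers of the melanoma-like class. Immune-like barcodes that reached its threshold were left out, so the estimate may be too low. Summed red cell genes reached 1185 to 1475 CPM in macrophage-like, monocyte-like and T-like barcodes of library 1 and 34.1 to 55.7 CPM in those of library 2. Their part in the values below was not tested, except that melanoma RNA was subtracted in 1 alternative.

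As background, glycolysis turns glucose into pyruvate, and lactate dehydrogenase and a monocarboxylate carrier then turn pyruvate into lactate and export it. When oxygen is scarce, the prolyl hydroxylases encoded by Egln1 and Egln3 lose activity, the subunit HIF-1α is no longer marked for destruction, and HIF raises transcription of most enzymes of the pathway together with genes that limit mitochondrial respiration. Egln3 and Egln1 are HIF targets themselves and so form a feedback loop. Melanoma cells in culture are known for high glycolysis also with oxygen present, and activated macrophages and neutrophils likewise rely on it.

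HIF binds promoters at the core letters ACGTG or GCGTG, so the stretches before the start sites of 6 members are shown first: 4 that stood higher in melanoma-like than in monocyte-like barcodes (Ldha, Pgk1, Bnip3 and Ero1l) and 2 that stood higher in neutrophil-like barcodes (Egln3 and Slc16a3). Each is the 250 bases before a RefSeq start site on GRCm38.p6, read 5′ to 3′ on the strand of the gene, and capitals mark ACGTG or GCGTG on either strand, with overlapping matches run together. A CACGTG counts once on each strand and is also the E-box that other factors bind.
Ldha: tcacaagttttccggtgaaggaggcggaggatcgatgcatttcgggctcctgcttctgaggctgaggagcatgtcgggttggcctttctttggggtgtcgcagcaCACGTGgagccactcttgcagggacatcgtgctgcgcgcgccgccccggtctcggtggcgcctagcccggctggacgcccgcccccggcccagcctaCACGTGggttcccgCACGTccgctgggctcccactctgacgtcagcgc
Pgk1: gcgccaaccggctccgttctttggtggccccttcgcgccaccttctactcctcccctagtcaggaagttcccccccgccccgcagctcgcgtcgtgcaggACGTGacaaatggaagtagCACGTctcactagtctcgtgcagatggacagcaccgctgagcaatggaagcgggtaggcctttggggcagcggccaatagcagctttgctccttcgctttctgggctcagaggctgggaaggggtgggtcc
Bnip3: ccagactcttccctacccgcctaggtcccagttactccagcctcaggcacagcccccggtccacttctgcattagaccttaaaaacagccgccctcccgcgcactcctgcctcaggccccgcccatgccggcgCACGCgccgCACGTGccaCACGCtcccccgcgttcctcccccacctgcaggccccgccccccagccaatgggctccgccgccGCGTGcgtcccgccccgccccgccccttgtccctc
Ero1l: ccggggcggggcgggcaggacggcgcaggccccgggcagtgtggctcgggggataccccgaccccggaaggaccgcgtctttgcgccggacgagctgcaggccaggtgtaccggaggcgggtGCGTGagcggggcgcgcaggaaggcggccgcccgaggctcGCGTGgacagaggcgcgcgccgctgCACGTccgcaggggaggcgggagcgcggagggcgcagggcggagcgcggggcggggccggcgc
Egln3: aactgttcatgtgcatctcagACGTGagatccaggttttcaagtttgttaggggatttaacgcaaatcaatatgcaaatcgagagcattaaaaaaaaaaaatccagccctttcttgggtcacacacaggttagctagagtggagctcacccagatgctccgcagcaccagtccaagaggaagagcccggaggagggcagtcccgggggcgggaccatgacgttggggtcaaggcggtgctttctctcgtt
Slc16a3: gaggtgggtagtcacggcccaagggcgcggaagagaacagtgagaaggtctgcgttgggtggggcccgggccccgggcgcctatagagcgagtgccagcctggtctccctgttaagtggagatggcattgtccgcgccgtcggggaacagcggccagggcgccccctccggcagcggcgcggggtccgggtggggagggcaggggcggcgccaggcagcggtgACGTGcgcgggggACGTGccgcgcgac
The Ldha window (chr7:46845554-46845803, plus strand) held 5 matches, including 2 occurrences of CACGTG, and the Bnip3 window (chr7:138909507-138909756, minus strand) also held 5, with 1 CACGTG. The window of Ero1l, named Ero1a in RefSeq (chr14:45318573-45318822, minus strand), held 3. The windows of Pgk1 (chrX:106186850-106187099, plus strand) and of Slc16a3 (chr11:120948817-120949066, plus strand) held 2 each, and that of Egln3 (chr12:54203875-54204124, minus strand) held 1. Windows were found for 30 of the 32 members, all except Bnip3l and Ndrg1, taking for each gene the RefSeq start nearest to a principal GENCODE start. At least 1 match was present in 22 of these 30 windows (73.3%), in 10 of 15 glycolytic steps (66.7%) and in 11 of 13 HIF target and feedback genes (84.6%), against 12679 of all 32851 RefSeq windows of this length (38.6%). At least 3 matches were present in 9 of the 30 (30%) against 6.58% of all windows. The windows of Hk1, Gpi1, Aldoa, Tpi1, Pkm, Hilpda, Kdm3a and Mif held none, which says only that these letters are not in those 250 bases. All 6 windows shown are among the 22 with a match. Both cores contain the letters CG, and the members' windows were not matched to all windows in base composition. The shares are therefore not read as an enrichment of HIF sites. A match is a description of the letters and not a bound site.

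The levels of all members by class and library are in the heat map of log10 CPM. Gapdh, Pkm, Tpi1, Mif, Ldha, Aldoa, Pgam1, Pgk1, Gpi1 and Eno1 had over 1000 CPM in melanoma-like barcodes of both libraries, and Higd1a was the only HIF target gene that did. The summed glycolytic steps made up 2.98% of melanoma-like UMIs in library 1 and 2.85% in library 2. The same sum was 1.21% and 1.41% in macrophage-like, 1.05% and 1.04% in monocyte-like, 1.02% and 1.24% in neutrophil-like, 0.942% and 0.999% in T-like and 0.479% and 0.549% in NK-like barcodes. Melanoma-like barcodes were thus highest and NK-like barcodes lowest in both libraries, and the order of the classes between them was not the same in both.

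**Figure D1:**
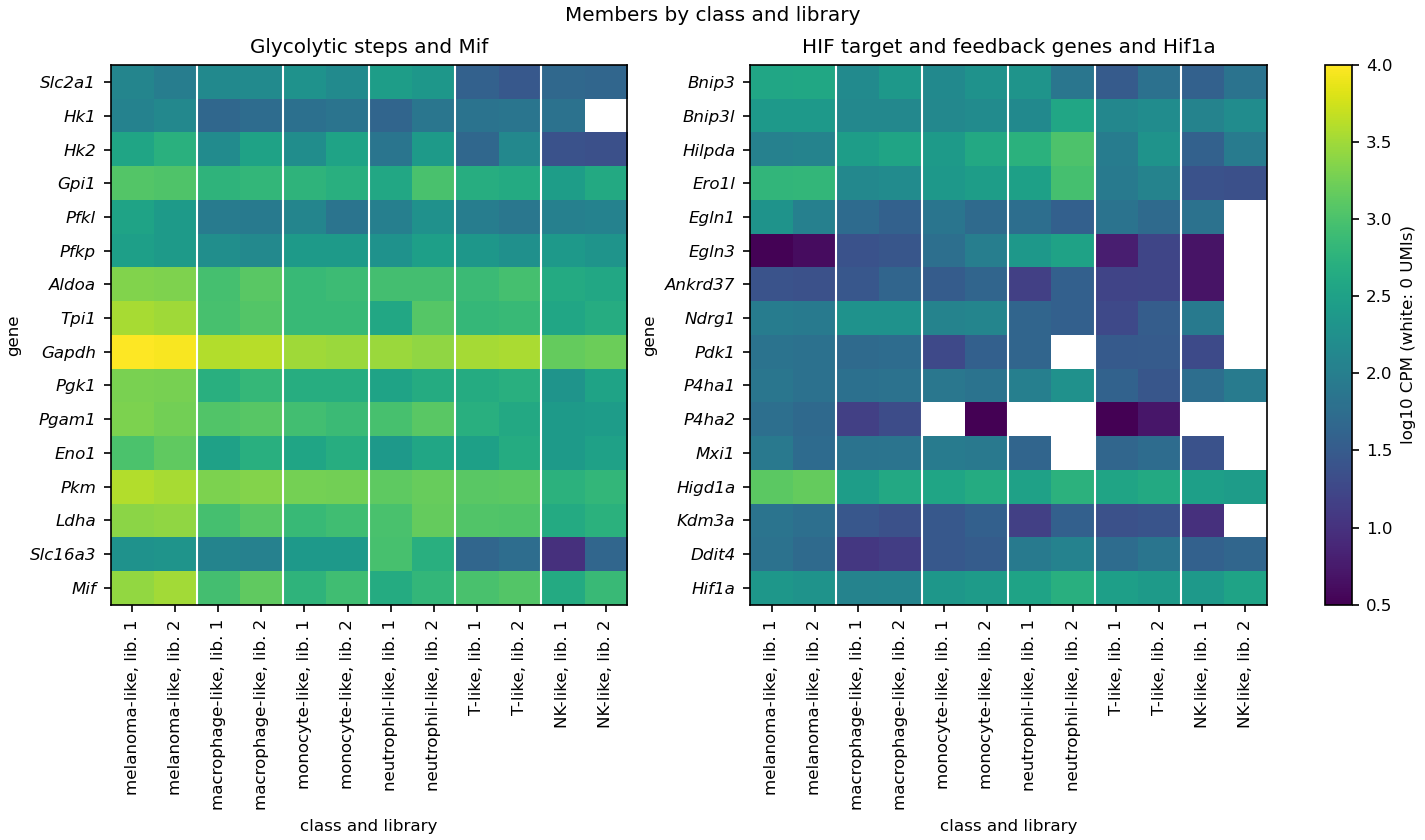
Heat map of the level of each member (rows) in the 6 classes of each library (columns), as log10 CPM, with white cells for 0 UMIs; the left panel has the glycolytic steps and Mif and the right panel the HIF target and feedback genes and Hif1a. Gapdh is brightest in every column of the left panel, and Egln3 is darkest in the melanoma-like columns of the right panel, at 3.28 and 4.11 CPM.

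The summed HIF target and feedback genes stood at 3384 and 3434 CPM in melanoma-like barcodes and at 2174 and 3739 CPM in neutrophil-like barcodes, whose sums rested on 148 and 101 UMIs. They were at 1660.0 and 2062 CPM in monocyte-like, 1515 and 1839 CPM in macrophage-like, 1003 and 1295 CPM in T-like and 821 and 739.5 CPM in NK-like barcodes. Glycolytic UMIs outnumbered HIF target UMIs in every class. The ratio of the sums was 8.81 (8.76 to 8.86) and 8.29 (8.25 to 8.32) in melanoma-like barcodes, 8 and 7.69 in macrophage-like, 9.39 and 7.72 in T-like and 5.83 and 7.42 in NK-like barcodes. In monocyte-like barcodes it was below the melanoma-like, macrophage-like and T-like values, at 6.35 (6.05 to 6.68) and 5.07 (4.77 to 5.38), and it was lowest in neutrophil-like barcodes, at 4.68 (3.92 to 5.63) and 3.31 (2.64 to 4.17). The neutrophil-like interval lay below that of the macrophage-like and the monocyte-like barcodes in each library, with counting error as the only spread covered. The sums are carried by few genes: Gapdh gave 21.3% to 35.7% of glycolytic UMIs in every class. Higd1a, a mitochondrial protein that protects cells from low oxygen, gave 38.3% and 42.9% of the HIF target UMIs of melanoma-like barcodes. In neutrophil-like barcodes the leading HIF target was instead Hilpda, with 25% and 27.7%.

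Between classes, a gene counted as higher when its ratio reached 2 in the same direction in both libraries and its UMIs in the 2 classes together came to 50 or more in each library. Against macrophage-like barcodes, 14 of the 32 members (43.8%) were higher in melanoma-like barcodes, where 23.7% of all 11270 measured genes were, and 3 (9.38%) were lower, where 12.9% of all genes were. The higher members were 7 glycolytic steps (Hk1, Pfkl, Tpi1, Gapdh, Pgk1, Eno1 and Ldha), 6 HIF targets (Ero1l, Egln1, P4ha2, Higd1a, Kdm3a and Ddit4) and Mif. The lower ones were Hilpda, Egln3 and Ndrg1, all HIF targets. The median log2 ratio of the glycolytic steps was 1.24 in library 1 and 0.89 in library 2, that of the HIF targets 0.85 and 0.74, and that of all genes 0.45 and 0.35. With the ratios centred on the median of all genes, 8 members were higher and 3 lower.

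Against monocyte-like barcodes, 14 members (43.8%) were higher in melanoma-like barcodes, beside 35.4% of all genes, and 2 were lower, Hilpda and Egln3, beside 12.9%. The 14 were 8 glycolytic steps, now with Aldoa and Pgam1 and without Hk1, 5 HIF targets (Bnip3, Ero1l, Egln1, P4ha2 and Higd1a) and Mif. Median log2 ratios were 1.26 in both libraries for the glycolytic steps and 1.17 and 0.63 for the HIF targets, or 1.19 and 0.64 with the gene at 0 placed at its bound. The median of all genes, not bounded, was 0.67 and 0.59. Because melanoma-like barcodes exceeded monocyte-like barcodes in most genes, centring on that median left 7 members higher and 5 lower.

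Among the early and middle steps, Pfkl, the liver-type phosphofructokinase, was at 340.2 and 258 CPM in melanoma-like barcodes and at 91.5 and 85 CPM in macrophage-like barcodes, a ratio of 3.72 (3.19 to 4.37) and 3.04 (2.59 to 3.58). Tpi1, triosephosphate isomerase, was at 3448 and 3178 CPM against 970.0 and 1175 CPM, a ratio of 3.55 (3.39 to 3.73) and 2.71 (2.59 to 2.82). Gapdh, the dehydrogenase that follows, was at 10179 and 9317 CPM against 3971 and 4188 CPM, a ratio of 2.56 (2.50 to 2.62) and 2.22 (2.18 to 2.28). Each of these ratios was smaller in library 2, where macrophage-like barcodes held 6.96% melanoma RNA against 2.29%. With that RNA subtracted, the summed glycolytic steps of macrophage-like barcodes were at 11702 and 13063 CPM, against 29824 and 28463 CPM in melanoma-like barcodes. By these values too the classes were closer in library 2, and the part of melanoma RNA was not tested. Pgk1, phosphoglycerate kinase, was at 1959 and 1926 CPM against 510.3 and 683 CPM, a ratio of 3.84 (3.60 to 4.10) and 2.82 (2.67 to 2.98). Eno1, an enolase, was at 1023 and 1377 CPM against 319 and 517 CPM. Their promoter windows differ, with 2 matches in Pgk1 and Gapdh, 1 in Pfkl and Eno1 and none in Tpi1.

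Not every step followed this direction. Slc2a1, the glucose carrier GLUT1, was at 123 and 97.2 CPM in melanoma-like barcodes, and at 146 and 151 CPM in macrophage-like, 190.4 and 149.8 CPM in monocyte-like and 279 and 222 CPM in neutrophil-like barcodes. Melanoma-like barcodes were lower than these 3 myeloid classes in both libraries, and the ratio of monocyte-like over melanoma-like was 1.55 (1.34 to 1.78) and 1.54 (1.25 to 1.89). T-like barcodes had 38.9 and 29.0 CPM of Slc2a1, below all of them. Pfkp, the platelet-type phosphofructokinase, was at 298 and 257 CPM in melanoma-like barcodes and at 257 and 252 CPM in monocyte-like barcodes. Of the phosphofructokinase UMIs, Pfkp gave 45.6% and 48.5% in melanoma-like barcodes but 64.2% and 60.9% in macrophage-like and 66.9% and 78.0% in monocyte-like barcodes.

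Slc16a3, the lactate exporter MCT4, was highest in neutrophil-like barcodes at 969 and 518 CPM (66 and 14 UMIs). It stood at 251 and 243 CPM in monocyte-like, 195 and 202 CPM in melanoma-like, 121 and 109 CPM in macrophage-like, 45.1 and 56.2 CPM in T-like and 9.55 and 44.8 CPM in NK-like barcodes, the last from 2 UMIs in each library. Neutrophil-like barcodes exceeded melanoma-like barcodes 4.97-fold (3.84 to 6.33) and 2.57-fold (1.40 to 4.31). Monocyte-like barcodes exceeded macrophage-like barcodes 2.08-fold (1.73 to 2.49) and 2.22-fold (1.79 to 2.76), a call lost with barcodes of several classes kept and as a mean over barcodes. The order neutrophil, monocyte, melanoma, macrophage held in both libraries. With each barcode thinned to 500 UMIs, 33.7% (24.6 to 43.8) and 17.5% (7.34 to 32.8) of neutrophil-like barcodes had a Slc16a3 UMI, against 8.99% and 9.51% of melanoma-like and 1.09% and 1.39% of T-like barcodes. Unthinned, 42.6% and 25% of neutrophil-like and 74.9% and 71.6% of the far deeper melanoma-like barcodes had one.

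Egln3, which encodes the hydroxylase PHD3, was the member furthest above its melanoma-like level in each of the 3 myeloid classes. Melanoma-like barcodes had 131 and 265 UMIs of it in all, or 3.28 and 4.11 CPM. Macrophage-like barcodes had 24.1 and 27.0 CPM, monocyte-like barcodes 60.4 and 97.8 CPM, and neutrophil-like barcodes 235 and 333 CPM, from 16 and 9 UMIs. T-like barcodes had 6.22 and 17.0 CPM, and NK-like barcodes had 1 and 0 UMIs, the latter allowing up to 67.2 CPM. The levels rose from melanoma-like to macrophage-like, monocyte-like and neutrophil-like barcodes in both libraries, and the Poisson intervals of neighbours in this order did not overlap.

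Relative to melanoma-like barcodes, Egln3 was 7.35-fold (5.08 to 10.4) and 6.58-fold (4.75 to 8.95) higher in macrophage-like barcodes and 18.4-fold (13.5 to 24.9) and 23.8-fold (17.7 to 31.5) higher in monocyte-like barcodes. In neutrophil-like barcodes it was 71.6-fold (39.7 to 121) and 81.0-fold (36.7 to 156) higher. Monocyte-like exceeded macrophage-like barcodes 2.50-fold (1.68 to 3.76) and 3.62-fold (2.45 to 5.37), a call lost as a mean over barcodes, and neutrophil-like exceeded monocyte-like barcodes 3.89-fold (2.10 to 6.78) and 3.41-fold (1.49 to 6.90). Summed neutrophil markers were at 243 and 949 CPM in monocyte-like barcodes and at 172094 and 164889.7 CPM in neutrophil-like barcodes. At 500 UMIs per barcode, 11.9% and 15% of neutrophil-like and 4.59% and 4% of monocyte-like barcodes had an Egln3 UMI, against 0.179% and 0.169% of melanoma-like and 0.468% and 1.11% of T-like barcodes. Before thinning these shares were 13.9% and 20.0%, 9.17% and 8.35%, 5.32% and 4.73%, and 1.25% and 2.22%.

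Egln1, which encodes PHD2, the main oxygen sensor of most tissues, ran the other way. It was at 199 and 106 CPM in melanoma-like barcodes, 53.3 and 39.2 CPM in macrophage-like and 72.2 and 50.5 CPM in monocyte-like barcodes. Melanoma-like exceeded macrophage-like barcodes 3.74-fold (3.06 to 4.63) and 2.71-fold (2.15 to 3.48). As a share of the UMIs of Egln1, Egln2 and Egln3, Egln3 was 1.34% and 2.78% in melanoma-like barcodes, 18.9% and 25.0% in macrophage-like, 29.1% and 49.2% in monocyte-like and 80.0% (56.3 to 94.3) and 75.0% (42.8 to 94.5) in neutrophil-like barcodes. Egln1 was thus the leading hydroxylase in melanoma-like barcodes, with 81.4% and 72%, and Egln3 the leading one in neutrophil-like barcodes.

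Hilpda, a protein that holds lipid droplets from being broken down, had the same order as Egln3 at its ends. It was at 109 and 117 CPM in melanoma-like, 278 and 354 CPM in macrophage-like, 256 and 408 CPM in monocyte-like and 543 and 1037 CPM in neutrophil-like barcodes. T-like barcodes had 94.1 and 201 CPM and NK-like barcodes 38.2 and 89.6 CPM. Over melanoma-like barcodes it was 2.54-fold (2.31 to 2.79) and 3.03-fold (2.79 to 3.28) higher in macrophage-like barcodes. Macrophage-like and monocyte-like barcodes could not be told apart, at a monocyte over macrophage ratio of 0.922 (0.794 to 1.07) and 1.15 (0.994 to 1.33). Neutrophil-like barcodes exceeded monocyte-like barcodes 2.12-fold (1.46 to 2.99) and 2.54-fold (1.65 to 3.76), a mean log2 ratio of 1.23 with a pseudocount of 0.5 UMIs. With at least 1000 UMIs asked of a barcode, which 95 of the 101 and 36 of the 40 neutrophil-like barcodes did not have, it was -1.42. Ndrg1, a stress response gene, was higher in macrophage-like barcodes at 191 and 192 CPM against 92.0 and 86.3 CPM in melanoma-like barcodes, a ratio of 2.08 (1.86 to 2.33) and 2.22 (1.99 to 2.48).

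**Figure D2:**
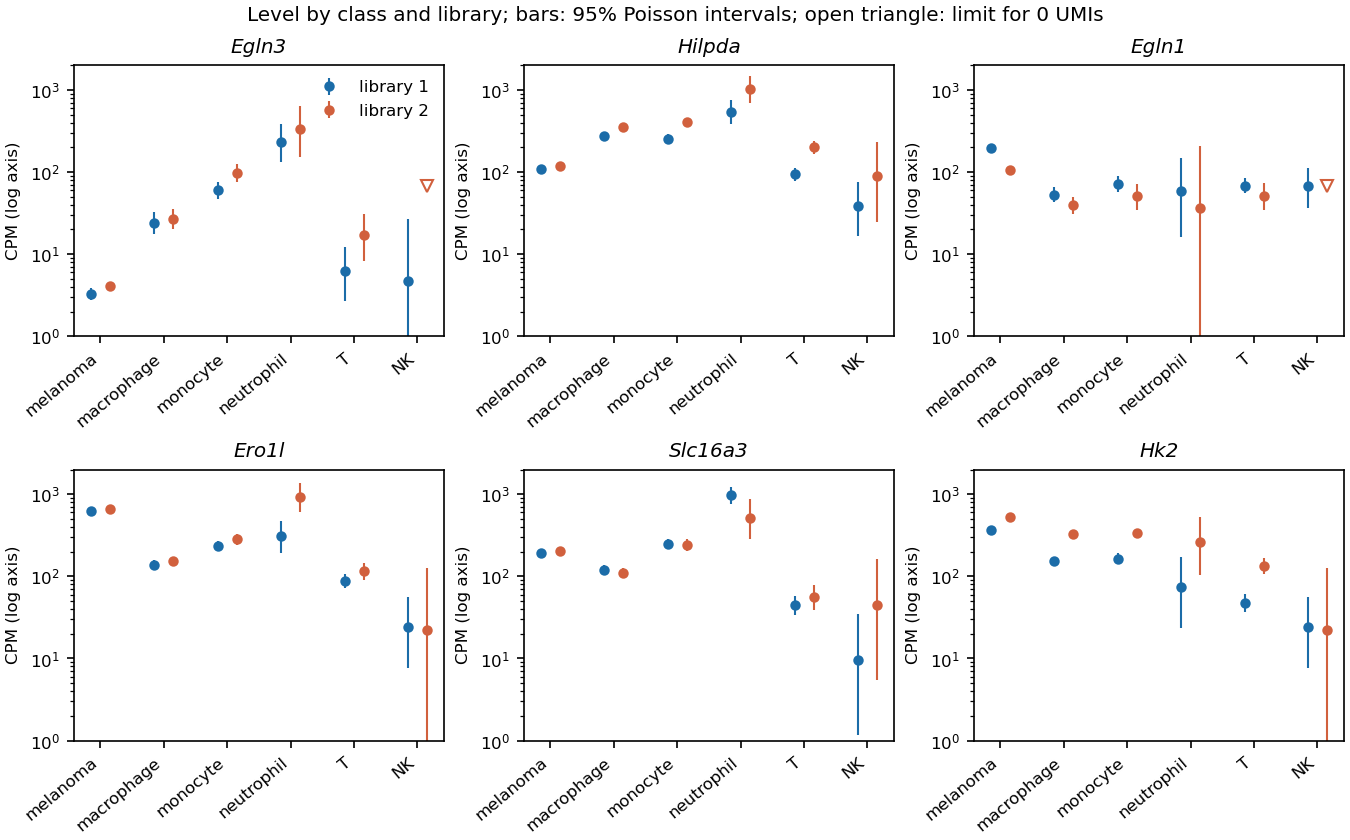
Level in CPM on a log axis of 6 members in each class, library 1 in blue and library 2 in orange, with 95% Poisson intervals of counting error and open triangles at the limit for 0 UMIs; intervals that reach below 1 CPM are clipped at the axis. Egln3 climbs from 3.28 and 4.11 CPM in melanoma-like to 235 and 333 CPM in neutrophil-like barcodes. Egln1 and Ero1l are higher in melanoma-like than in macrophage-like barcodes. In the Hk2 panel, library 2 is higher in melanoma-like, macrophage-like, monocyte-like and T-like barcodes.

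Other HIF targets were higher in melanoma-like than in macrophage-like barcodes. Ero1l, an oxidase of the endoplasmic reticulum that forms disulfide bonds, was at 631 and 659 CPM there, and at 138 and 153 CPM in macrophage-like, 236 and 281 CPM in monocyte-like, 87.8 and 116 CPM in T-like and 23.9 and 22.4 CPM in NK-like barcodes. Its melanoma over macrophage ratio was 4.57 (4.03 to 5.20) and 4.31 (3.83 to 4.87). Its melanoma over monocyte ratio was 2.67 and 2.35. The neutrophil-like barcodes, at 308 and 926 CPM from 21 and 25 UMIs, lay below melanoma-like barcodes in library 1 and above them in library 2. Higd1a was at 1295 and 1473 CPM in melanoma-like barcodes and between 269 and 555 CPM in every other class, and its melanoma over macrophage ratio was 4.59 (4.20 to 5.02) and 3.58 (3.33 to 3.86). Ddit4, an inhibitor of the growth kinase mTORC1, was at 65.8 and 51.6 CPM in melanoma-like and 11.8 and 13.8 CPM in macrophage-like barcodes, while T-like barcodes had 54.4 and 73.3 CPM and neutrophil-like barcodes 88.1 and 111 CPM, the latter from 6 and 3 UMIs.

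Bnip3 and Bnip3l encode paired receptors that mark mitochondria for removal. Bnip3 was at 367 and 386 CPM in melanoma-like, 149 and 231 CPM in macrophage-like, 146 and 192 CPM in monocyte-like and 31.9 and 63.0 CPM in T-like barcodes. Bnip3l varied less, at 242 and 239 CPM in melanoma-like and 131 and 158 CPM in T-like barcodes. Of their joint UMIs, Bnip3l gave 39.7% and 38.3% in melanoma-like but 80.5% (74.5 to 85.6) and 71.5% (63.0 to 79.1) in T-like barcodes. P4ha2, a subunit of collagen prolyl hydroxylase, was at 59.5 and 49.0 CPM in melanoma-like barcodes, 14.6 and 20.4 CPM in macrophage-like barcodes, and 0 and 2 UMIs in monocyte-like barcodes. In library 1 it was therefore at least 22-fold higher in melanoma-like than in monocyte-like barcodes, against a limit of 3 UMIs (the two-sided exact interval starts at 17.9), and in library 2 the ratio was 15.5 (4.29 to 128). Its partner P4ha1 was nearly level across these classes, at 74.9 and 64.8 CPM, 62.9 and 66.2 CPM, and 76.7 and 67.8 CPM.

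Kdm3a, a histone demethylase, was at 70.1 and 59.9 CPM in melanoma-like and 28.1 and 23.7 CPM in macrophage-like barcodes, a ratio of 2.5 (1.89 to 3.37) and 2.53 (1.87 to 3.5). Pdk1, Mxi1 and Ankrd37 did not pass the rule between these classes. Pdk1, which blocks entry of pyruvate into the citric acid cycle, was at 68.2 and 63.0 CPM against 51.1 and 55.2 CPM. Mxi1, a repressor that opposes Myc, was at 81.4 and 52.1 CPM against 68.5 and 71.2 CPM, on different sides of 1 in the libraries. Ankrd37 was measured below 50 CPM in every class. In library 2 it had no UMI in NK-like barcodes, where the limit was 67.2 CPM. Only 2.5% of the 40 neutrophil-like barcodes of that library had an Ankrd37 UMI.

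Hif1a itself did not have the order of its summed targets across all classes. It was at 226 and 197 CPM in melanoma-like, 115 and 121 CPM in macrophage-like, 226 and 265 CPM in monocyte-like, 338 and 518 CPM in neutrophil-like, 299 and 252 CPM in T-like and 239 and 336 CPM in NK-like barcodes. Macrophage-like barcodes were lowest in both libraries, and monocyte-like barcodes exceeded them 1.97-fold (1.63 to 2.38) and 2.19-fold (1.78 to 2.69), which missed the 2-fold rule in library 1. T-like barcodes had more Hif1a than melanoma-like barcodes, 1.32-fold (1.19 to 1.47) and 1.28-fold (1.08 to 1.5), with less of the summed targets. HIF-1α is controlled mainly at the protein level, which was not measured. Mif, a secreted cytokine whose gene is a HIF target, was at 2673 and 3262 CPM in melanoma-like barcodes, and its ratio over monocyte-like barcodes was 4.47 (4.14 to 4.83) and 3.82 (3.51 to 4.17).

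Against neutrophil-like barcodes, 12 members (37.5%) were higher in melanoma-like barcodes, beside 61.5% of all genes. Another 4 (Slc2a1, Slc16a3, Hilpda and Egln3) were lower, beside 7.08%. The UMI minimum was asked of both classes together, so a gene with 0 neutrophil-like UMIs could count as higher. P4ha2, with 0 in both libraries, was called so although its limit in library 2 puts the ratio only at 0.441 or more. The shares of members and of all genes are therefore not compared. Centred, 13 members were higher and 2 lower. Median log2 ratios were 1.53 and 0.83 for the glycolytic steps and 0.66 and 0.11 for the HIF targets, against 0.37 and -0.61 for all genes. With HIF targets at 0 placed at their bounds, the HIF medians were 0.76 and -0.67. The all-gene medians were not bounded in this way, so they are not a like measure for these 2 values. With 68085 and 27012 UMIs in the class, many genes had few or 0 neutrophil-like UMIs, and the interval excluded 1 in both libraries for 11 of the 16, not for Slc2a1, Hk2, Egln1, Ndrg1 and P4ha2. Against T-like barcodes, 21 members (65.6%) were higher in melanoma-like barcodes, beside 25.2% of all genes, and none was lower, beside 10.1%. These were 13 of 15 glycolytic steps, all but Hk1 and Pfkp, 7 of 15 HIF targets and Mif, and centring left 15 higher and 1 lower. Median log2 ratios were 1.65 and 1.60 for the glycolytic steps and 1.12 and 1.03 for the HIF targets, against 0.35 and 0.35 for all genes. Against NK-like barcodes, 23 members (71.9%) were higher, beside 35.6% of all genes, and none was lower, beside 8.75%. Of these, Egln1, Ankrd37, Pdk1, P4ha2, Mxi1 and Kdm3a had 0 NK-like UMIs in library 2, where the limit of 67.2 CPM lay above the melanoma-like level of all but Egln1. Among all genes, too, a gene with 0 NK-like UMIs could count as higher, so the shares are not compared here either. The interval excluded 1 in both libraries for 16 of the 23. Median log2 ratios were 2.47 and 2.34 for the glycolytic steps and 1.63 and 2.22 for the HIF targets, against 0.23 and -0.42 for all genes. With members at 0 placed at their bounds, they were 2.48 and 2.31 for the glycolytic steps and 1.77 and 0.20 for the HIF targets. The all-gene medians were again not bounded.

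**Figure D3:**
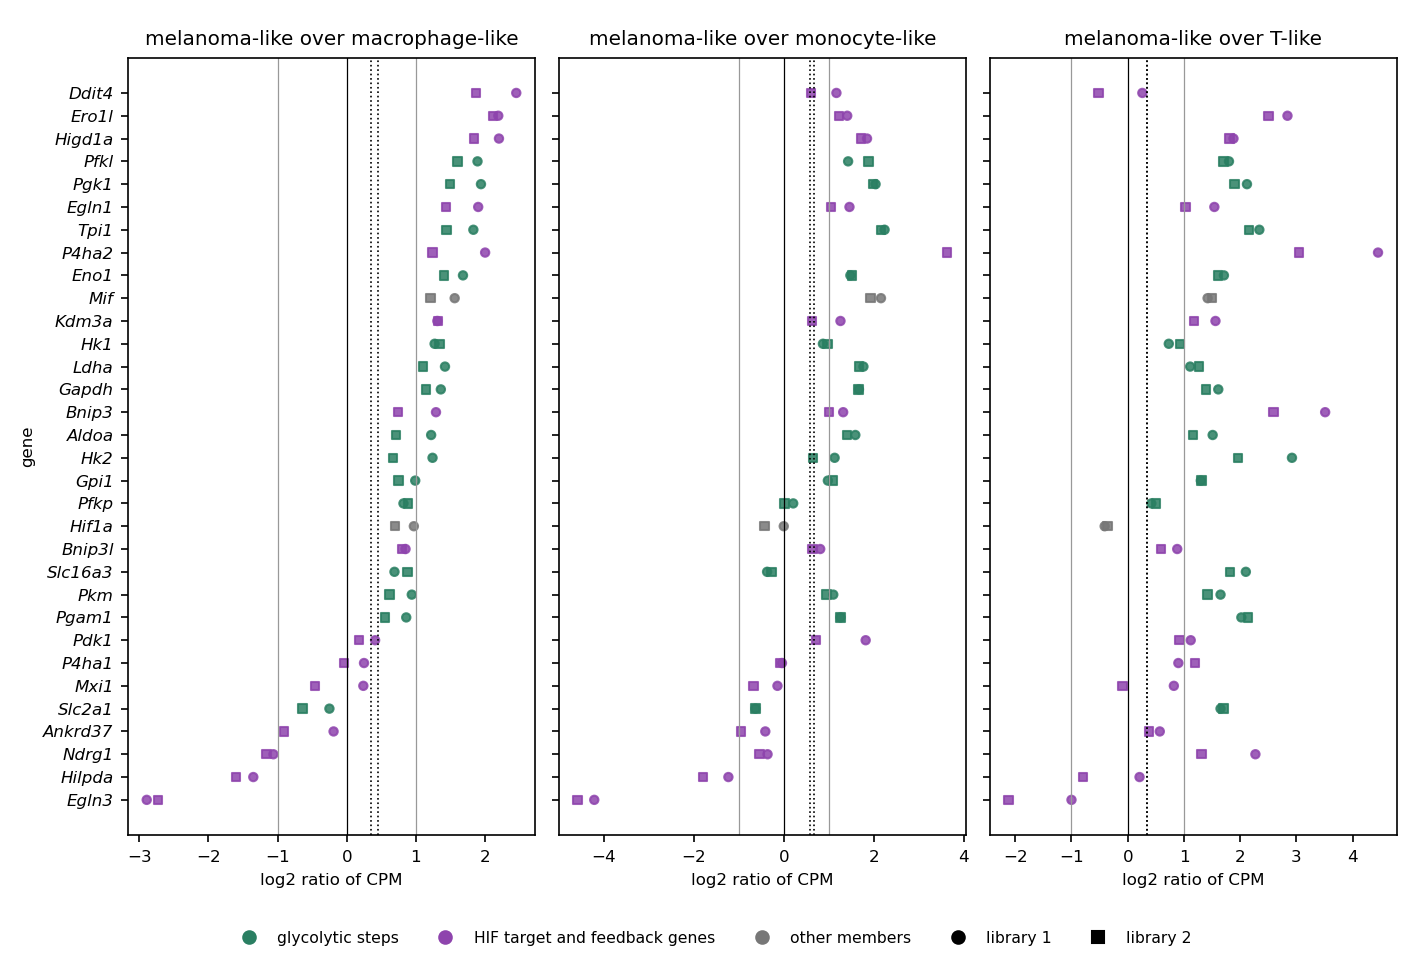
Log2 ratio of CPM in melanoma-like over macrophage-like (left), monocyte-like (middle) and T-like barcodes (right) for each member, with a pseudocount of 0.5 UMIs, circles for library 1 and squares for library 2; grey lines mark 2-fold, dotted lines the median of all measured genes in each library, and P4ha2 has no point where the second class had 0 UMIs. Egln3 lies far left in the first 2 panels, and all glycolytic steps lie right of 0 in the T-like panel.

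Between macrophage-like and monocyte-like barcodes, 2 of 30 measured members passed the rule, Slc16a3 and Egln3, both higher in monocyte-like barcodes, where 5.58% of all genes were, and none was higher in macrophage-like barcodes, where 8.59% were. Median log2 ratios of macrophage-like over monocyte-like were -0.00 and 0.33 for the glycolytic steps and -0.22 and -0.16 for the measured HIF targets, against 0.07 and 0.13 for all genes. With barcodes of several classes kept, Slc16a3 lost its call, at a mean log2 ratio of -0.89, and as a mean over barcodes both lost it, at -1.01 for Slc16a3 and -1.45 for Egln3. Between neutrophil-like and monocyte-like barcodes, 3 of 23 measured members were higher in neutrophil-like barcodes (Slc16a3, Hilpda and Egln3; 5.21% of all genes) and 2 lower (Ndrg1 and Mxi1; 34.4%), the latter from at most 3 neutrophil-like UMIs, with intervals that include 1. Median log2 ratios over measured members were -0.38 and 0.31 for the glycolytic steps and 0.29 and 0.84 for the HIF targets. For all genes they were -0.87 and -0.55, and centred on these 8 members were higher and none lower. The UMI minimum was asked of both classes together, and the neutrophil-like class held only 68085 and 27012 UMIs. The shares and medians of members and of all genes are therefore not compared here. Between T-like and NK-like barcodes, 5 of 18 measured members were higher in T-like barcodes (8.41% of all genes) and none in NK-like barcodes (2.58%). They were Gapdh, Pkm, Ldha, Hilpda and Ero1l, and the intervals of Hilpda and Ero1l include 1 in library 2. The count was 2 after centring. Ldha, the lactate dehydrogenase A subunit, was at 1133 and 1101 CPM in T-like and 439 and 538 CPM in NK-like barcodes, a ratio of 2.58 and 2.05.

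Of 14 other glycolysis genes, 13 were measured between melanoma-like and macrophage-like barcodes, and 8 (61.5%, beside 23.7% of all genes) were higher in the former (Pfkm, Aldoc, Bpgm, Pgm2, Eno2, Eno3, Ldhb and Slc16a1) and 3 (23.1%, beside 12.9%) lower (Hk3, Pfkfb3 and Pfkfb4). Hk3, a hexokinase of myeloid cells, was at 0.527 and 0.295 CPM in melanoma-like and 66.8 and 51.3 CPM in macrophage-like barcodes. Pfkfb3, which makes the activator of phosphofructokinase, was at 7.45 and 9.26 CPM in melanoma-like and 69.6 and 92.2 CPM in macrophage-like barcodes, 9.35-fold (7.52 to 11.6) and 9.95-fold (8.33 to 11.8) higher in the latter. Ldhb, the other lactate dehydrogenase subunit, went the opposite way, at 642 and 581 CPM against 26.9 and 52.4 CPM, and gave 20.7% and 17.9% of lactate dehydrogenase UMIs in melanoma-like but 2.86% and 4.05% in macrophage-like barcodes. Hk3 thus ran against Hk1, which was higher in melanoma-like barcodes, while Ldhb ran with Ldha. The part of melanoma RNA, an estimated 2.29% and 6.96% of macrophage-like UMIs, in the macrophage-like Ldhb values was not tested. Slc2a3, the glucose carrier GLUT3, gave 4.46% and 6.66% of the UMIs of Slc2a1 and Slc2a3 in melanoma-like barcodes, 47.9% and 60.5% in T-like and 29.6% and 64.7% in neutrophil-like barcodes, the last from 8 and 11 UMIs.

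Of 18 other HIF pathway genes, 17 were measured, and 7 (41.2%, beside 23.7% of all genes) were higher in melanoma-like than in macrophage-like barcodes (Vegfa, Car9, Fam162a, Gys1, Gbe1, Ak4 and Plod2) and none lower, beside 12.9%. Plod2, which modifies collagen lysines, was at 165 and 167 CPM against 3.37 and 12.1 CPM. Car9, the carbonic anhydrase IX of acid export, was at 43.7 and 56.1 CPM against 2.25 and 7.17 CPM. Macrophage-like barcodes held an estimated 2.29% and 6.96% melanoma RNA, and its part in these low Plod2 and Car9 values was not tested. They are thus not read as macrophage expression. Vegfa, the angiogenic growth factor, was at 117 and 111 CPM against 43.8 and 55.2 CPM, 2.68-fold (2.14 to 3.39) and 2.01-fold (1.65 to 2.48). Epas1, which encodes HIF-2α, was measured below 25 CPM in every class. In neutrophil-like barcodes of library 2 such a value means no UMI, and the limit there was 111 CPM.

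Side by side, the libraries differed little in most members. No member differed 2-fold in melanoma-like barcodes, where 1.67% of genes were past that fold toward library 2 and 0.568% toward library 1. Hk2, the inducible hexokinase, was the exception in immune classes. It was at 153 and 332 CPM in macrophage-like barcodes, at 164 and 334 CPM in monocyte-like, at 47.4 and 135 CPM in T-like and at 362 and 527 CPM in melanoma-like barcodes. Library 2 was higher 2.18-fold (1.88 to 2.52), 2.04-fold (1.66 to 2.50), 2.84-fold (2.01 to 4.03) and 1.46-fold (1.43 to 1.49) in that order. Hk2 was the only one of 31 measured members past 2-fold in macrophage-like barcodes (1.33% of all genes higher in library 2 and 1.80% in library 1) and of 30 in monocyte-like barcodes (1.44% and 2.71%). Its log2 ratio fell just short of 2-fold, at 0.97, in macrophage-like barcodes with the marker threshold doubled and, at 0.99, in monocyte-like barcodes with 1000 UMIs asked of a barcode. In T-like barcodes it was joined by Hilpda, 2.14-fold (1.64 to 2.78), as 2 of 27 (1.10% and 2.73%).

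With melanoma RNA subtracted in proportion to the pigment genes, Hk2 was at 148 and 318 CPM in macrophage-like, 159 and 319 CPM in monocyte-like and 38.4 and 109.8 CPM in T-like barcodes. Library 2 was higher in all 3 by these values. Because the pigment genes also set the classes, the subtraction may be too small, and the part of melanoma RNA was not tested. At 500 UMIs per barcode, 5.19% and 14.0% of macrophage-like, 6.17% and 13.7% of monocyte-like and 2.50% and 4.71% of T-like barcodes had an Hk2 UMI, beside 36.6% and 47.0%, 21.7% and 25.6%, and 7.64% and 18% before thinning. As a share of hexokinase UMIs in macrophage-like barcodes, Hk2 was 57.3% (52.7 to 61.8) and 75.9% (72.8 to 78.9), while Hk3 was 25.1% and 11.7%. In all, 12 of 15 glycolytic steps and 12 of 14 measured HIF targets had a ratio above 1 toward library 2 in macrophage-like barcodes. Of all 6452 genes measured there, 3316 had such a ratio. The median log2 ratio was 0.15 over all members against 0.01 for all genes. In melanoma-like barcodes 11 of 32 members had a ratio above 1, beside 5495 of 12317 genes, with a median of -0.09 against -0.03. The largest differences there were in Egln1, at 199 and 106 CPM, and Mxi1, at 81.4 and 52.1 CPM, both lower in library 2. No member was 2-fold different among 13 measured in NK-like barcodes (1.23% and 7.07% of all genes), and 2 of 9 were in neutrophil-like barcodes (13.6% and 8.95%), Gpi1 and Tpi1, both higher in library 2. Genotype, tumour pool and library preparation cannot be told apart in these differences.

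Among melanoma-like barcodes, the members varied together from barcode to barcode. Barcodes with at least 5000 UMIs, 2021 of 2235 in library 1 and 4824 of 5333 in library 2, were thinned to 5000 UMIs each. The summed HIF targets then ranged from 2 UMIs at the 5th percentile through a median of 14 to 47 at the 95th percentile in library 1, and from 3 through 14 to 46 in library 2. The summed glycolytic steps ran from 77 through 154 to 233 and from 79 through 143 to 215. The variance of the glycolytic sum was 15.3 and 12.4 times its mean, and that of the HIF target sum 12.3 and 11.3 times. This spread between barcodes is not in the intervals given for class levels and ratios.

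Across these barcodes Spearman's rho between the sums was 0.77 in library 1 and 0.75 in library 2. The barcodes of a library share 1 preparation and are not replicates, so the value is a description. It was 0.65 in both libraries without Gapdh and Higd1a, the leading gene of each sum, an alternative chosen after seeing the data. Single pairs of members correlated less, with a median rho of 0.25 and 0.22 over 105 pairs of glycolytic steps, 0.19 and 0.17 over 105 pairs of HIF targets and 0.17 and 0.15 over 225 pairs across the lists. The strongest pairs were Gapdh with Higd1a, at 0.67 and 0.63, Ero1l with Higd1a, at 0.63 and 0.62, and Bnip3 with Ero1l, at 0.64 and 0.60. The Spearman correlation with the summed cell cycle genes was -0.35 and -0.36 for glycolysis and -0.36 and -0.37 for the HIF targets, and with the UMIs of a barcode before thinning it was -0.15 and -0.12 and -0.27 and -0.21. The part of cell cycle and depth in the shared variation was not tested.

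**Figure D4:**
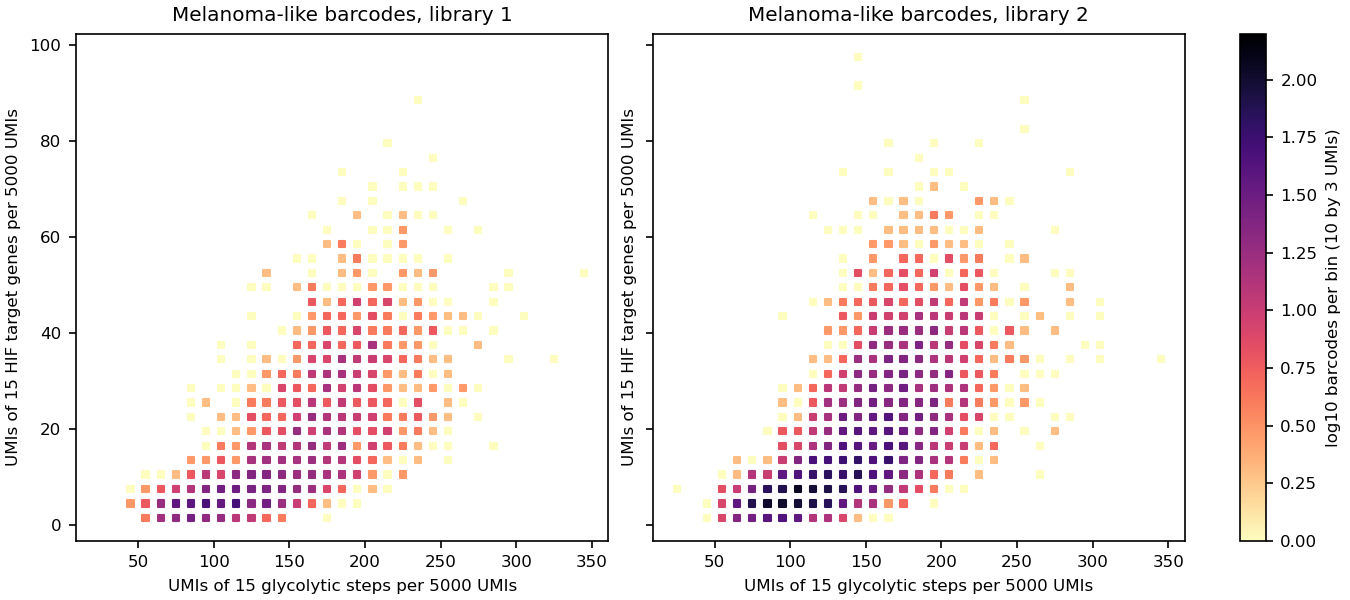
Summed UMIs of the 15 HIF target and feedback genes (vertical) against those of the 15 glycolytic steps (horizontal) in melanoma-like barcodes thinned to 5000 UMIs, 1 panel per library, with the colour giving log10 of the barcodes in each bin. Both panels show 1 cloud that widens upward, with medians of 154 and 143 glycolytic and 14 HIF target UMIs.

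Members differed in how far they took part. Ero1l had a rho of 0.76 and 0.73 with the sum of the other HIF targets, Bnip3 0.72 and 0.69, Higd1a 0.72 and 0.71, and Gapdh 0.74 and 0.67 with the HIF target sum. Of the glycolytic steps, Gpi1 (0.60 and 0.58), Pgk1 (0.59 and 0.56) and Pkm (0.58 and 0.53) followed the HIF target sum most closely after Gapdh. Pgam1 (0.21 and 0.20) and Eno1 (0.16 and 0.23) followed it least, with Slc16a3 (0.18 and 0.24) and Hk1 (0.23 and 0.22). Hk2 (0.50 and 0.50), Slc2a1 (0.51 and 0.39) and Pfkp (0.51 and 0.41) leaned to the HIF target sum more than to the other glycolytic steps, for which rho was 0.34 and 0.29, 0.40 and 0.28, and 0.45 and 0.33. Hif1a had a rho of 0.20 and 0.12 with the HIF target sum. Egln3 was near 0 (0.04 and 0.05) and had a UMI in only 1.93% and 2.01% of the thinned barcodes, where a weak correlation is no finding. Of the promoter windows of the members named here, that of Bnip3 held 5 matches and those of Ero1l, Pgam1, Pfkp and Hif1a 3 each. Those of Gapdh, Higd1a, Pgk1, Hk2, Slc2a1 and Slc16a3 held 2 each, and those of Eno1 and Egln3 1 each. The windows of Gpi1, Pkm and Hk1 held none. A relation between matches and rho was not tested.

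**Figure D5:**
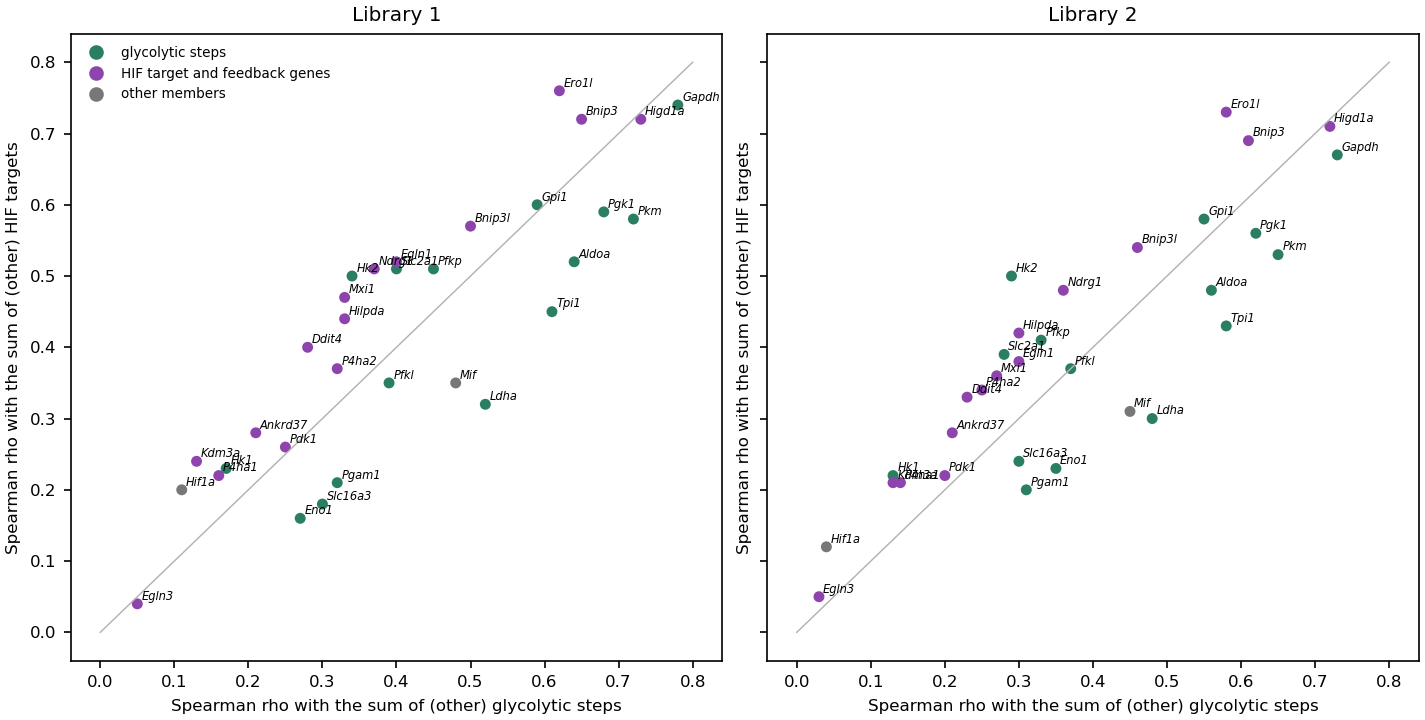
Spearman's rho of each member with the sum of the other glycolytic steps (horizontal) and with the sum of the other HIF target and feedback genes (vertical) across melanoma-like barcodes thinned to 5000 UMIs, 1 panel per library, with equal values on the grey line. Ero1l, Bnip3, Higd1a and Gapdh are at the upper right in both panels, and Egln3 and Hif1a at the lower left.

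Among 3182 genes outside the list, the 10 most like the HIF target sum in melanoma-like barcodes were Espn (0.67 and 0.67), Mt1 (0.65 and 0.64), Bsg (0.64 and 0.62), Ier3, Fau, Tmsb10, Vegfa (0.54 and 0.52), Anxa2, Selenbp1 and Actg1. The median gene had -0.04 and -0.03. The 10 most like the glycolytic sum were Bsg (0.63 and 0.58), Espn (0.59 and 0.57), Fam162a (0.52 and 0.54), Tmsb10, Anxa2, Mt1, Fau, Selenbp1, Ier3 and Ndufv3. Bsg encodes basigin, the chaperone of the monocarboxylate carriers, and Mt1 encodes a metallothionein. Immune classes were shallower. Macrophage-like barcodes thinned to 2000 UMIs had a rho of 0.55 between the sums in both libraries (338 and 413 barcodes), and monocyte-like barcodes thinned to 1000 UMIs had 0.47 and 0.51 (534 and 318 barcodes), at depths that differ from that of the melanoma-like barcodes, so that the values are not compared.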

How the data were processed

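The deposited matrix holds UMI counts of 31053 genes in 18252 barcodes of both libraries, made by the authors with Cell Ranger on mm10, per the submitters' processing notes; the file header names its writer as version 3.0.2. The sequencing aim was 10000 reads per cell, per the labels' protocols. Members, lists and markers were chosen with earlier results of these data known, and all 32 members are named, with pathway genes outside the list named where called between classes or where they encode an isozyme, and the 10 genes most alike each sum.

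A barcode was retained from 500 UMIs and 200 genes upward if mitochondrial UMIs did not exceed 10%. Those whose sequence occurred in the other library with over 10 times the UMIs were left out, which left 5198 and 7999; 3609 barcode sequences occurred in both libraries. A class needed at least 3 UMIs from at least 2 of its markers and a share of UMIs of at least 0.3% (melanoma), 0.2% (macrophage, monocyte and NK), 3% (neutrophil) or 0.1% (T). No doublet caller was run, and 327 and 193 barcodes with markers of several classes, 515 and 772 of none and 163 and 18 of B, dendritic or mast cells were left out. UMIs were summed per class and library (27012 to 64457070 UMIs), with exact Poisson, conditional binomial or Clopper-Pearson intervals. Log2 ratios and their medians carry a pseudocount of 0.5 UMIs, and ratios carry none. A count of 0 was given the limit of 3 UMIs. The scripts were tested on simulated counts. Promoter windows came from RefSeq on GRCm38.p6. Computation ran under pandas 2.3.3, scipy 1.17.1, numpy 2.4.6 and Python 3.11.15. Alternatives changed barcode filters, markers, scaling, melanoma RNA, thresholds and thinning.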

Additional observations from a re-analysis of the deposited data

Results flagged for a closer look

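Gpi1 and Tpi1 had opposite directions in the libraries between neutrophil-like and monocyte-like barcodes. The ratio of Gpi1, glucose-6-phosphate isomerase, was 0.672 (0.44 to 0.987) in library 1 and 1.95 (1.27 to 2.89) in library 2, from 27 neutrophil-like UMIs in each. That of Tpi1 was 0.545 (0.357 to 0.799) and 1.66 (1.12 to 2.38), from 27 and 32 UMIs. The difference between the libraries was not tested. Only members beyond 1.25-fold in opposite directions, a limit chosen after seeing the data, were taken up here.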

How the results depend on the processing

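Of 895 values recomputed under alternatives, 274 counts or correlations kept to the main value and 50 moved, and of the single-gene ratios 517 kept their call, 52 lost it and 2 reversed. No paired analysis was possible because each genotype has 1 library. The cause of a change was not tested unless stated. Both reversals, in neutrophil-like over monocyte-like log2 ratios, came with at least 1000 UMIs per barcode, which 95 of 101 and 36 of 40 neutrophil-like barcodes do not have: Hilpda from 1.23 to -1.42 and Ndrg1 from -1.19 to 1.37. Hilpda also lost that call in 4 settings, at 0.74 to 1.02, and Slc16a3 in 4, at 1.31 to 1.44. Slc2a1, higher in neutrophil-like than in melanoma-like barcodes, lost its call in 8 settings. Melanoma-like over macrophage-like, Ndrg1 lost its call in 3, the strongest at -1.09.

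Centring on all genes changed these member counts: higher in melanoma-like barcodes, 8 against macrophage-like (14 before) and 7 against monocyte-like (14); higher in monocyte-like than in melanoma-like, 5; in neutrophil-like than in melanoma-like, 2; in neutrophil-like than in monocyte-like, 8, with 0 lower; in T-like than in NK-like, 2; and in T-like than in melanoma-like, 1. The last count, 0 before, was 1 also without mitochondrial and ribosomal genes in the totals, with the top 6% of barcodes by UMIs left out (chosen after seeing the data), at 1.5 times and in library 2 alone. At 1.5 times, 23 members were higher in melanoma-like than in macrophage-like and 22 than in monocyte-like barcodes, 2 in macrophage-like and 5 in monocyte-like barcodes between those classes, and 11 in T-like over NK-like. In library 1 alone, 19 were higher in melanoma-like than in neutrophil-like barcodes, 1 in macrophage-like than in monocyte-like and 8 in T-like than in NK-like. In library 2 alone, 7 were higher in neutrophil-like than in melanoma-like and 5 than in monocyte-like barcodes.

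Between macrophage-like and monocyte-like barcodes, those higher in the latter (2) came to 1 with barcodes of several classes kept and 0 as means over barcodes; those higher in the former (0) came to 1 with the marker threshold doubled or 10 UMIs asked. Neutrophil-like over monocyte-like, those higher (3) came to 0 at 1000 UMIs per barcode and 1 with no mitochondrial filter or without mitochondrial and ribosomal totals. Those lower (2) came to 1 at 1000 UMIs per barcode, with melanoma RNA subtracted or the top 6% left out, and 0 with several classes kept. T-like over NK-like, the 5 came to 1 at 1000 UMIs per barcode, 8 with melanoma RNA subtracted and 3 as means over barcodes. Between libraries, those higher in library 2 came to 0 in macrophage-like barcodes with the threshold doubled, 0 in monocyte-like barcodes at 1000 UMIs per barcode, and 1 in T-like barcodes with several classes kept or the threshold doubled. Those higher in library 1 (0) came to 1 in monocyte-like barcodes with the threshold doubled or melanoma RNA subtracted, and 1 in T-like barcodes with the threshold doubled.

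Across melanoma-like barcodes, rho was 0.68 and 0.66 at 2000 UMIs, 0.82 and 0.81 at 10000 UMIs and 0.65 in both libraries without Higd1a and Gapdh, and Pearson's r on log2(UMI + 1) was 0.74 in library 2. Totals without mitochondrial and ribosomal genes moved the all-gene median log2 ratio by over 0.1 in several comparisons, as from 0.45 to 0.56 for melanoma-like over macrophage-like barcodes in library 1. Depth limits neutrophil-like and NK-like values most: 1 UMI is 37 CPM in the neutrophil-like class of library 2.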
